A study of Mus musculus with 16 samples.

Results

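Gene expression was compared between O4-positive brain cells of 4 male pups exposed to bisphenol A (BPA) and 4 unexposed male pups, 8 of the 16 RNA libraries of the study, over all autosomal genes. The 4 control and 4 BPA males were taken by their labelled sex and treatment. Of 30484 autosomal genes in the count table, 15740 had enough counts to be tested. All animals were OF-1 mice, an outbred strain, killed at postnatal day 16. BPA males had been exposed from gestational day 7 onwards, through the mothers' drinking water at 250 µg/mL and through lactation, at a labelled intake of 40 µg/kg/day. These figures for water and intake were not reconciled here. Control males carried the label of untreated animals, and no engineered allele is named for either group. Cells of dissociated brain were bound by antibodies to O4, a sulfated glycolipid antigen, and held on a magnetic column, so each library is a bulk of all cells retained. Litters and batches are not labelled. P-values rest on how far the libraries differ within their groups of sex and exposure, over all 16 libraries, females included. Littermates share the mother's exposure, so p-values may be too small if litters were shared.

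Oligodendrocytes arise from precursors that carry the growth factor receptor PDGFRA, pass through a short-lived committed and newly formed stage, and then wrap axons in myelin, whose sheath is rich in myelin basic protein and in lipids. O4 appears on late precursors and stays on newly formed and myelinating cells, so a sort for it at this age holds several stages. BPA is a plasticizer monomer that binds estrogen receptors weakly and, with lower or higher affinity, several other nuclear receptors.

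Male libraries held from 25127727 to 38463074 counts, with a mean of 31524441 ± 4965324 in controls and 35593072 ± 3781668 in BPA males (SD, n = 4 each). Levels are given as CPM, the count of a gene as a share of its library's total after scaling, in the order of replicates 1 to 4. A gene with 0 counts could still reach from 0.0747 to 0.118 CPM by counting error, which is 3 counts per library. Mbp, encoding myelin basic protein, stood at 19057, 16444, 19806 and 18260.5 CPM in controls and at 16282, 12984, 19146 and 19877 CPM in BPA males, and all 29 myelinating oligodendrocyte markers were detected. The summed level of 19 microglial markers was 726 to 1944 CPM in controls and 879 to 1723 CPM in BPA males, and that of 14 neuronal markers 47.3 to 57.5 and 45.4 to 66.4 CPM.

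The BPA library of replicate 2 (male BPA 2) stood apart from the other 3 of its group. In it 1156 of 12923 genes at 1 CPM or more were at least 2-fold off the median of the other BPA males, against 156 to 385 genes in each of the other 7 male libraries, measured in the same way. Set against counting noise, the chi-square per gene was 99.7 to 149.2 in its 3 pairs and 18.3 to 29.4 in the other 9 pairs within a group. Its 20 astrocyte markers summed to 11640 CPM, against 1726 to 3578 CPM in the other BPA males and 2242 to 4186 CPM in controls. Aqp4, the water channel of astrocyte endfeet, was at 114, 125, 64.3 and 75.6 CPM in controls and at 86.2, 398, 68.0 and 52.9 CPM in BPA males. Results that rest on this library are given with and without it.

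Most genes differed little between exposed and control males. Over the 15740 genes the median log2 fold change was 0.01 and the median absolute log2 fold change 0.11, a 1.08-fold difference, and 95% of genes had an absolute log2 fold change under 0.63. Limma-voom, a linear model on log2 counts with precision weights, called 1 gene at a Benjamini-Hochberg adjusted p under 0.05, which is 0.00635% of genes tested. This gene lost its call in each of the 8 fits without 1 male library, which hold fewer animals, and in the fits with marker covariates. It kept the call with median-of-ratios scaling, with other count filters and in the males alone. At an unadjusted p under 0.05, 496 genes were higher (3.15%) and 754 lower (4.79%) in BPA males, 1250 in all (7.94%). In 256 genes every BPA male was above every control (1.63%), and in 442 every BPA male was below (2.81%).

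Effect sizes narrowed as levels rose. Among 2817 genes with a mean under 1 CPM the median absolute log2 fold change was 0.30, and 186 (6.60%) differed 2-fold or more. It was 0.17 among 4310 genes from 1 to 10 CPM, 0.07 among 6785 genes from 10 to 100 CPM and 0.06 among 1828 genes at 100 CPM or more, of which 0 differed 2-fold. The 95% confidence interval of the fold change lay within 2-fold either way for 80.1% of all genes and for 98.6% of those at 100 CPM or more. For 92.9% of these abundant genes it lay within 1.5-fold. At 100 CPM or more, 131 genes were lower and 39 higher at an unadjusted p under 0.05, the most uneven split of the 4 ranges of level. The split by level was not recounted without single libraries. Over all levels, the 496 higher and 754 lower genes became 890 higher and 920 lower without male BPA 2.

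**Figure D1:**
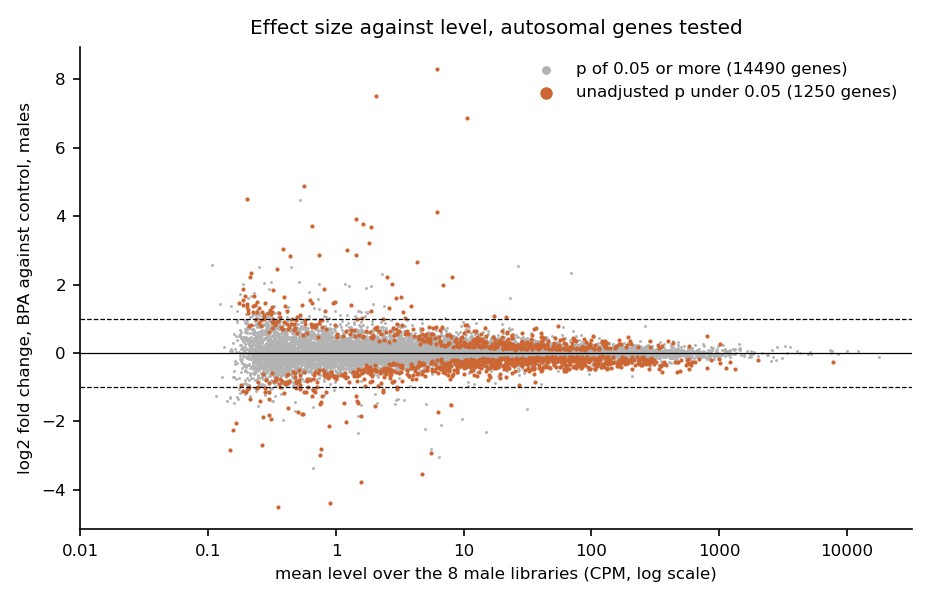
Log2 fold change, BPA against control males (vertical axis), against the mean level over the 8 male libraries in CPM (horizontal axis, log scale), 1 point per autosomal gene tested. Orange points are the 1250 genes with an unadjusted p under 0.05 and dashed lines mark 2-fold; points beyond the lines thin out to the right and none lies there at 100 CPM or more.

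Differences of 2-fold or more were found in 156 genes higher in BPA males (0.991%) and 111 lower (0.705%), 267 in all. Without male BPA 2 the balance was reversed, with 140 genes higher and 169 lower. Of the 267 genes, 186 (69.7%) had a mean under 1 CPM, 134 had an unadjusted p under 0.05 and 54 had groups that did not overlap. When each of the 8 libraries was left out in turn, 89 stayed at 2-fold or more in every fit, and 33 dropped under 0.5 on the log2 scale or changed sign in at least 1 fit. At 1 CPM or more there were 81 such genes, of which 35 stayed at 2-fold in every fit and 12 dropped under 0.5 or changed sign. In 43 of the 81, the highest library of 1 group was at least 8 times its lowest (0.1 CPM added to each), against 137 of all 12923 genes at that level (1.06%).

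Several of the largest differences were of this kind, near 0 in some animals and not in others. Rps3a3, an intronless copy of the gene for ribosomal protein S3A, was at 0.0274, 13.6, 0 and 0.0590 CPM in controls and at 13.3, 11.9, 15.8 and 29.7 CPM in BPA males. Control 2 lay among the BPA males, so the groups overlapped. Rps3a1, the source gene of that protein, was at 16.7, 7.21, 16.0 and 14.7 CPM in controls and at 7.41, 7.02, 8.24 and 0.380 CPM in BPA males. The 2 genes mirrored each other: the 3 libraries with almost no Rps3a3 had the 3 highest Rps3a1 levels, and male BPA 4, with the highest Rps3a3 level, had almost no Rps3a1. Their sum was 16.7, 20.8, 16.0 and 14.8 CPM in controls and 20.7, 18.9, 24.1 and 30.1 CPM in BPA males. Rps3a1 was chosen after its values were seen. The same mirror was present in females, where control 1 had 0.663 CPM of Rps3a1 and 29.3 CPM of Rps3a3, and BPA 4 had 0.805 and 30.2 CPM.

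Their transcripts are shown because they are near-identical. The GENCODE M21 transcripts (GRCm38) differ at 9 of 795 aligned bases (98.9% identity), with 0 gaps. Of the 50-base words of Rps3a3, 49.6% occur in Rps3a1 and 65.1% in any other gene, and of those of Rps3a1, 39.9% occur in Rps3a3 and 71.0% in any other gene, most often in Rps3a2. In the coding stretch below, 60 bases from transcript position 339 to 398 of Rps3a1 and 206 to 265 of Rps3a3, capitals mark the bases that differ, which are T11C and T55C with positions counted from 1 at the 5′ end of the stretch, the Rps3a1 base first.
Rps3a1: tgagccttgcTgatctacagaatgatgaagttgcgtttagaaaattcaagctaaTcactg
Rps3a3: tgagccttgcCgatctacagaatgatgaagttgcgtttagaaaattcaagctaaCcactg
Elsewhere the transcripts run for 50 bases and more without a difference. The counts of both genes are uncertain, and which copy or allele the reads came from was not tested.

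Other genes of the largest differences also varied between single animals. Egflam, which encodes the matrix protein pikachurin, was at 13.2, 1.18, 12.5 and 12.8 CPM in controls and at 0.785, 2.17, 0.871 and 0.678 CPM in BPA males, so that control 2 lay among the exposed animals (log2 fold change -2.91 ± 1.19 SE, limma-voom adjusted p 0.553). Glns-ps1, a pseudogene of glutamine synthetase with 33.02% of its words in other genes, was at 9.83, 9.74, 6.84 and 3.66 CPM in controls and at 0.378, 13.1, 0.369 and 0.353 CPM in BPA males. Its log2 fold change was -2.80, and -4.18 without male BPA 2. Slc2a5, a fructose transporter that microglia express in brain, did separate the groups, at 0.467, 0.749, 0.830 and 0.295 CPM in controls and 7.18, 18.2, 17.8 and 3.72 CPM in BPA males (4.13 ± 1.65, limma-voom adjusted p 0.544). Hist1h2al, a replication-dependent histone gene, was at 0 to 0.0394 CPM in controls and at 6.57, 13.1, 16.1 and 13.2 CPM in BPA males, but 67.6% of its words occur in other histone genes and its counts are uncertain. In females Slc2a5 was at 0.717 to 14.8 CPM in controls and 0.724 to 37.3 CPM in BPA animals. Hist1h2al was at 0.0236 to 14.1 CPM in female controls and 7.92 to 14.3 CPM in BPA females. The highest unexposed female thus lay within the range of the BPA males in both genes.

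In 4 further genes named after their values were seen, single animals departed from their group. Cwc22, a splicing factor with 18.5% of its words in other genes, was at 9.50 to 11.2 CPM in 6 males and at 258 and 229.9 CPM in male BPA 2 and 4. Efna3, an ephrin ligand, was at 118 CPM in male control 1 and at 0.148 to 0.473 CPM in the other 7 males, and its log2 fold change went from -2.298 to 0.14 without that animal. Cntn3, a contactin adhesion molecule, was at 0.498 CPM in male BPA 2 and 24.7 to 47.0 CPM in the other 7, and went from -1.63 to 0.09 without it. Spock1, a matrix proteoglycan, was at 10.2 to 12.2 CPM in the 4 controls and in BPA 1 at 10.96 CPM, and at 2.19, 2.92 and 3.28 CPM in the other BPA males.

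**Figure D2:**
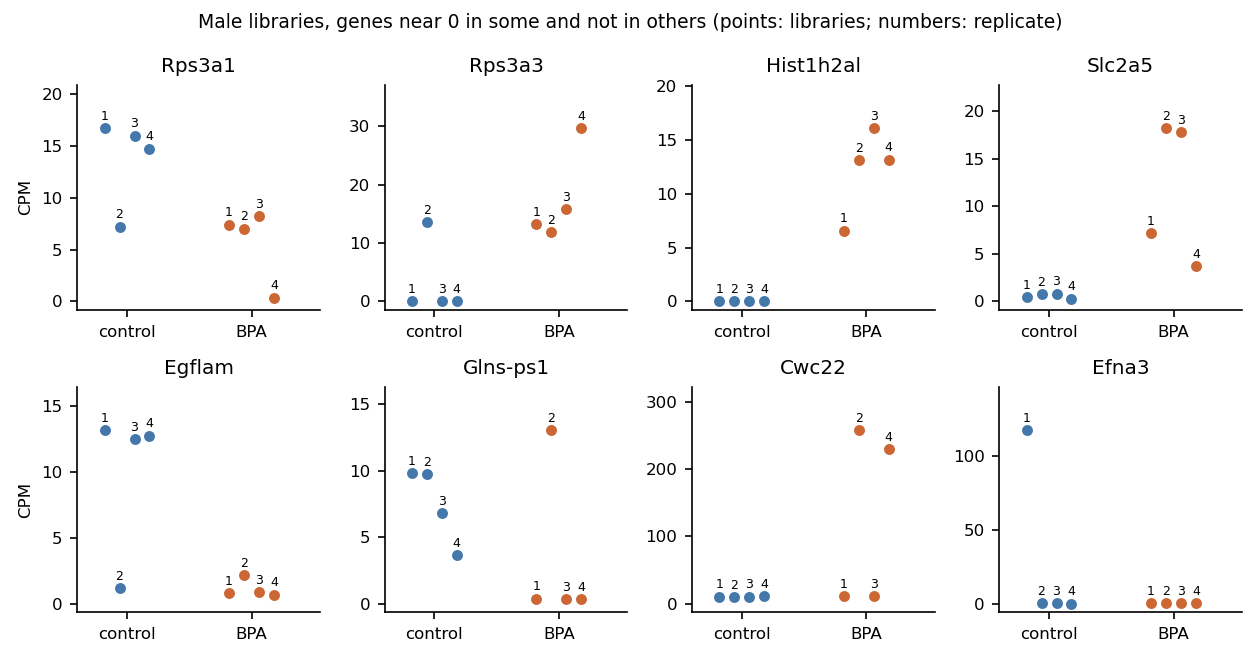
Levels in CPM (vertical axes, linear, each gene on its own scale) of 8 genes in the 4 control and 4 BPA males; each point is 1 library and its number the replicate. Rps3a1 and Rps3a3 mirror each other across the 8 animals, and Cwc22 and Efna3 are high in 2 and 1 of them.

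The genes of small p were followed through the same omissions of single libraries. Of the 1250 genes with an unadjusted p under 0.05, 413 kept it in all 8 fits that left out 1 male library, 142 higher and 271 lower. In 4 further fits the astrocyte, microglial or mural and fibroblast marker level of each library was a covariate, alone or all 3 together. Of the 1250 genes, 1168 kept their unadjusted p under 0.05 with the astrocyte covariate and 869 with the microglial one. With the mural and fibroblast covariate 902 kept it, and with all 3 together 836. Of the 413 genes, which had already kept it without male BPA 2, 410 kept it in each of these 4 fits. These 410 genes had a median absolute log2 fold change of 0.39, and 59 differed 2-fold or more. The groups did not overlap in 288 of them, against 1.63% higher and 2.81% lower over all genes tested. A small p in every fit of the same libraries selects for such separation, so it is no separate evidence.

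The named genes of smallest p that were lower in BPA males had various roles, and no theme was tested among them. Rpp30, a protein subunit of RNase P, was at 20.04, 19.7, 20.7 and 17.9 CPM in controls and at 10.5, 9.96, 14.1 and 11.97 CPM in BPA males, with no overlap. Trub1, which converts uridine to pseudouridine in transfer RNA, was at 20.5, 14.9, 16.5 and 18.03 CPM against 11.9, 11.7, 12.8 and 12.8 CPM (-0.52 ± 0.10, limma-voom adjusted p 0.221). Chd3, a helicase of the NuRD chromatin remodelling complex, was at 182, 179, 189 and 182 CPM against 137, 146, 127 and 155 CPM (-0.38 ± 0.08, limma-voom adjusted p 0.234). In all of them the lowest control lay above the highest exposed animal. Picking genes by the smallest p in these libraries selects for such separation, so it is no separate evidence. Utp14b, which acts in the nucleolus on ribosomal RNA precursors, was at 76.8, 68.5, 79.1 and 73.5 CPM against 50.5, 53.8, 47.2 and 55.1 CPM. Gpcpd1, an enzyme that breaks down glycerophosphocholine, was at 70.8, 68.4, 78.4 and 70.3 CPM against 38.6, 58.2, 52.2 and 53.6 CPM, BPA 1 being the lowest.

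Of the clustered protocadherins, a family of neural adhesion proteins, Pcdhga5 was higher and Pcdhb18 lower. Pcdhga5 was at 1.65, 1.06, 1.30 and 1.68 CPM in controls and at 6.07, 3.88, 3.05 and 4.78 CPM in BPA males, and 45.3% of its words lie in exons that it shares with other genes of its cluster, so its counts are uncertain. Pcdhb18 was at 10.3, 10.6, 10.8 and 10.6 CPM in controls and at 7.79, 7.92, 8.65 and 8.47 CPM in BPA males (-0.37 ± 0.07, limma-voom adjusted p 0.221), with 3.71% of its words in other genes. The groups did not overlap in either gene, and the BPA males ranged more widely than the controls in both. Pcdhb3 (-0.98 ± 0.25, limma-voom adjusted p 0.358) and Pcdhb2 (-0.82 ± 0.21, limma-voom adjusted p 0.369), named after their values were seen, were lower as well. Plk5, a polo-like kinase of postmitotic cells, was at 1.81, 1.54, 1.99 and 1.48 CPM against 0.814, 0.523, 0.402 and 0.760 CPM, and rested on only 12 to 66 counts a library.

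The named genes of smallest p that were higher in BPA males were as varied, and except for Dnah14 those given here differed less than 1.5-fold. Sall1, a zinc finger repressor expressed in brain by microglia among other cells, was at 93.1, 115, 103 and 117 CPM in controls and at 144, 132, 145 and 126 CPM in BPA males (0.36 ± 0.08, limma-voom adjusted p 0.247). Its log2 fold change was 0.31 with the 3 marker covariates. Triobp, an actin-bundling protein, was at 33.9, 33.8, 33.2 and 34.3 CPM against 41.9, 40.6, 38.2 and 42.4 CPM (0.27 ± 0.06, limma-voom adjusted p 0.270). Swt1, an endoribonuclease of RNA quality control at the nuclear pore, was at 16.7, 17.4, 15.4 and 18.2 CPM against 21.2, 21.01, 23.2 and 20.3 CPM (0.33 ± 0.07, limma-voom adjusted p 0.221). Cep19, a centrosome and cilium protein, was at 7.93, 6.86, 8.24 and 7.11 CPM against 9.36, 9.86, 9.82 and 9.74 CPM. The groups did not overlap in these 4 genes, which were picked by their p in the same way. Dnah14, an axonemal dynein heavy chain, was at 0.769, 1.14, 2.59 and 0.531 CPM against 4.82, 4.28, 3.48 and 4.29 CPM (2.02 ± 0.45, limma-voom adjusted p 0.271), with control 3 the nearest to the exposed animals. Garem1, an adaptor of growth factor signalling, was at 9.14 to 12.9 CPM in controls and 13.4 to 16.2 CPM in BPA males.

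**Figure D3:**
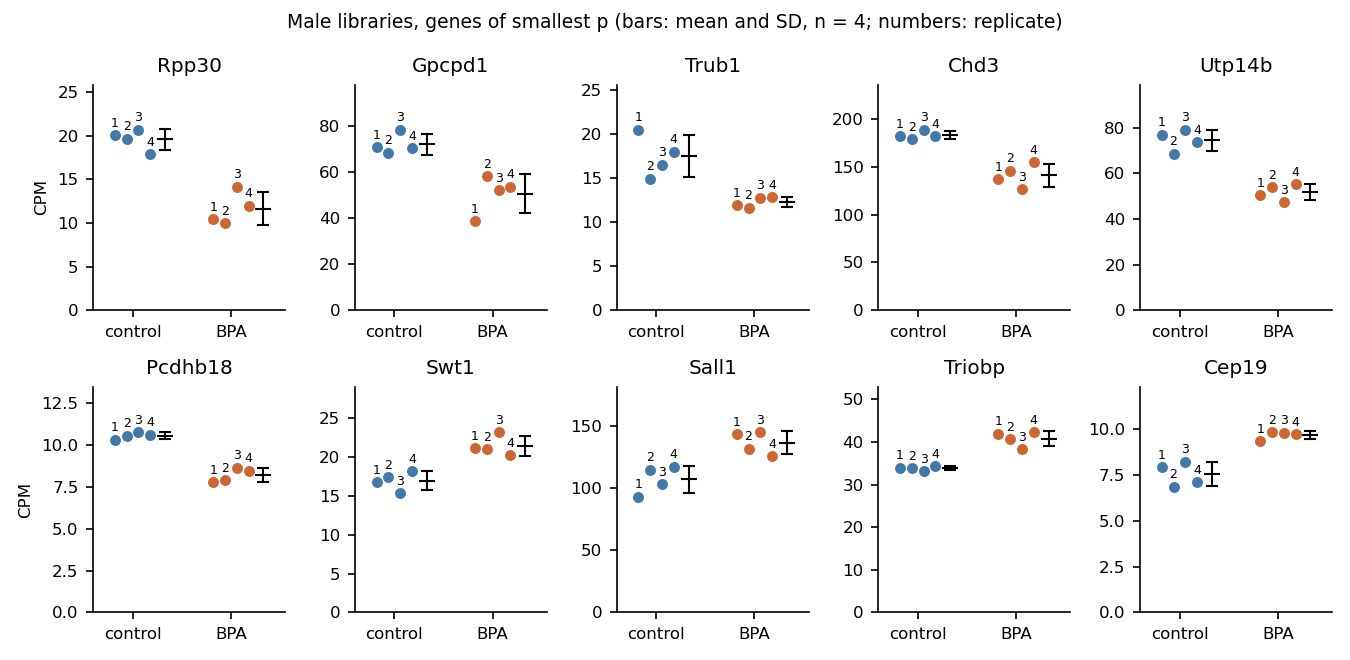
Levels in CPM (vertical axes from 0) of 10 of the genes of smallest p in the 4 control (blue) and 4 BPA (orange) males, each point 1 library with its replicate number and each bar the mean ± SD (n = 4). The groups do not overlap in any of the 10, and Rpp30 shows the largest relative difference, 17.9 to 20.7 against 9.96 to 14.1 CPM.

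Most genes of the precursor and newly formed stages were lower in BPA males, with medians of about the same size. Of 18 precursor markers 17 were lower and 1 higher, with a median log2 fold change of -0.27, while over all genes tested 8243 of 15740 (52.4%) were higher. No member was called, 6 had an unadjusted p under 0.05, all lower, and in 4 the groups did not overlap. Over all genes tested, 4.79% were lower at that p and 2.81% were lower without overlap. Tnr, encoding the matrix protein tenascin-R, was at 1387, 1529, 1544 and 1666 CPM in controls and at 1198, 1102, 932 and 1201 CPM in BPA males. Pcdh15, a protocadherin, was at 37.96, 32.5, 37.6 and 33.6 CPM against 27.3, 27.4, 27.2 and 31.2 CPM (-0.33 ± 0.11, limma-voom adjusted p 0.487). Sox6, a transcription factor that holds cells in the precursor state, was at 61.1, 58.8, 73.6 and 66.6 CPM against 47.2, 52.0, 47.9 and 48.5 CPM. Every BPA male lay below every control in these 3 genes. Pdgfra overlapped between the groups, at 183, 132, 211 and 138 CPM against 106, 106, 139.5 and 136 CPM. The mean level of the precursor list overlapped as well. It was 6.35 log2 CPM in male BPA 2, 5.96 to 6.08 in the other BPA males and 6.25 to 6.57 in controls. Members of the list were split in male BPA 2. Ptprz1 was at 746 CPM in it, against 280 to 313 CPM in the other BPA males and 386 to 427 CPM in controls. Cspg5 was at 311 CPM in it and at 121 to 136 CPM in the other BPA males. Pdgfra was lowest of the BPA males in it, as was Lhfpl3, at 40.7 CPM against 45.2 to 61.0 CPM. Which cells these counts came from was not tested. In a bulk of sorted cells, fewer cells of a stage and less RNA per cell cannot be told apart.

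Of 16 committed and newly formed oligodendrocyte markers, 14 were lower and 2 higher, with a median of -0.25. None was called, 8 had an unadjusted p under 0.05, all lower, and in 9 the groups did not overlap. The shares over all genes tested were 4.79% lower at that p and 2.81% lower without overlap. Frmd4a, a scaffold of cell polarity, was at 538, 574, 638 and 568 CPM in controls and at 439, 388, 346 and 463 CPM in BPA males (-0.51 ± 0.12, limma-voom adjusted p 0.358). Bcas1, which marks oligodendrocytes at the onset of myelination, was at 1141, 1038, 1207 and 1103 CPM against 953, 789.6, 908 and 1016 CPM. Tcf7l2, a transcription factor of the Wnt pathway that peaks in newly formed cells and was chosen after its values were seen, was at 88.3, 77.9, 90.9 and 77.4 CPM against 66.1, 64.7, 58.4 and 65.1 CPM (-0.39 ± 0.14, limma-voom adjusted p 0.496). These 3 genes separated the groups without overlap. Kif19a, a kinesin, was at 219 to 269.8 CPM in controls and 176 to 209.5 CPM in BPA males (-0.35 ± 0.10, limma-voom adjusted p 0.384).

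Leaving out single libraries moved the medians of both lists less than those of the lists of cells other than oligodendrocytes. With each male library left out in turn the precursor median was -0.35 to -0.19 and the newly formed median -0.29 to -0.18. With the 3 marker covariates in the fit both medians were -0.19. In females, which share no library with this comparison, the BPA minus control median was 0.16 for precursor markers, with 18 of 18 higher, and -0.06 for newly formed markers, with 6 of 16 higher. The difference between the sexes was tested gene by gene: the interaction called 0 of 15740 genes by limma-voom, with 735 at an unadjusted p under 0.05.

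Abundant genes outside the lists included several more of oligodendrocyte membranes and of the cytoskeleton beneath them that were lower, named here after their values were seen. Nfasc, the neurofascin of the paranodal junction with the axon, was at 7734, 8687, 8634 and 8677 CPM in controls and at 7191, 6634, 6715 and 7662 CPM in BPA males (-0.26 ± 0.07, limma-voom adjusted p 0.384). Cntn1, the contactin on the axonal side of that junction, which oligodendrocytes express as well, was at 666, 602, 745 and 682 CPM against 542, 486, 516 and 551 CPM (-0.36 ± 0.08, limma-voom adjusted p 0.271). Marcks, a membrane-bound actin regulator, was at 1364, 1172, 1533 and 1171 CPM against 914, 839, 1069 and 1029 CPM. All 3 separated the groups. So did Slc44a1, a choline transporter (1255 to 1379 against 927 to 1184 CPM), Epb41l2, a band 4.1 membrane skeleton protein (604 to 627 against 434 to 519.7 CPM), Tns3, a tensin of cell-matrix contacts (570.5 to 673 against 464 to 535 CPM), and Pdgfa, the ligand of the precursor receptor (115 to 129.6 against 80.4 to 105 CPM). Over all genes tested, 2.81% were lower without overlap. These genes were picked by their values, so their separation is no separate evidence. How many genes of these kinds did not differ was not counted. Ckb, the brain creatine kinase, was higher, at 538, 558, 541 and 506 CPM against 601, 694, 577 and 588 CPM (0.20 ± 0.06, limma-voom adjusted p 0.444).

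Myelin genes of the mature stage did not share the lower values of the earlier stages. Of 29 myelinating oligodendrocyte markers 20 were higher and 9 lower, with a median of 0.05, and none was called. At an unadjusted p under 0.05, 2 were higher and 1 lower, against 3.15% and 4.79% of all genes tested. The median was -0.01 to 0.13 when single libraries were left out, and 0.13 without male BPA 2. Klk6, a protease of myelinating cells, was at 51.3, 40.4, 28.1 and 38.7 CPM in controls and at 41.7, 90.3, 60.8 and 89.6 CPM in BPA males, BPA 1 lying among the controls (0.79 ± 0.29, limma-voom adjusted p 0.499). Mog, a glycoprotein of the outer myelin surface, was at 3612, 2805, 2752 and 2945 CPM against 3363, 2808, 4116 and 3646 CPM. Gjc3, a connexin of oligodendrocyte gap junctions, was lower in BPA males, at 692 to 933 CPM against 829.6 to 980.2 CPM in controls. Its log2 fold change was -0.19, and -0.11 without male BPA 2, its lowest library. Mbp had a log2 fold change of -0.12, and 0.01 without male BPA 2, its lowest library.

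**Figure D4:**
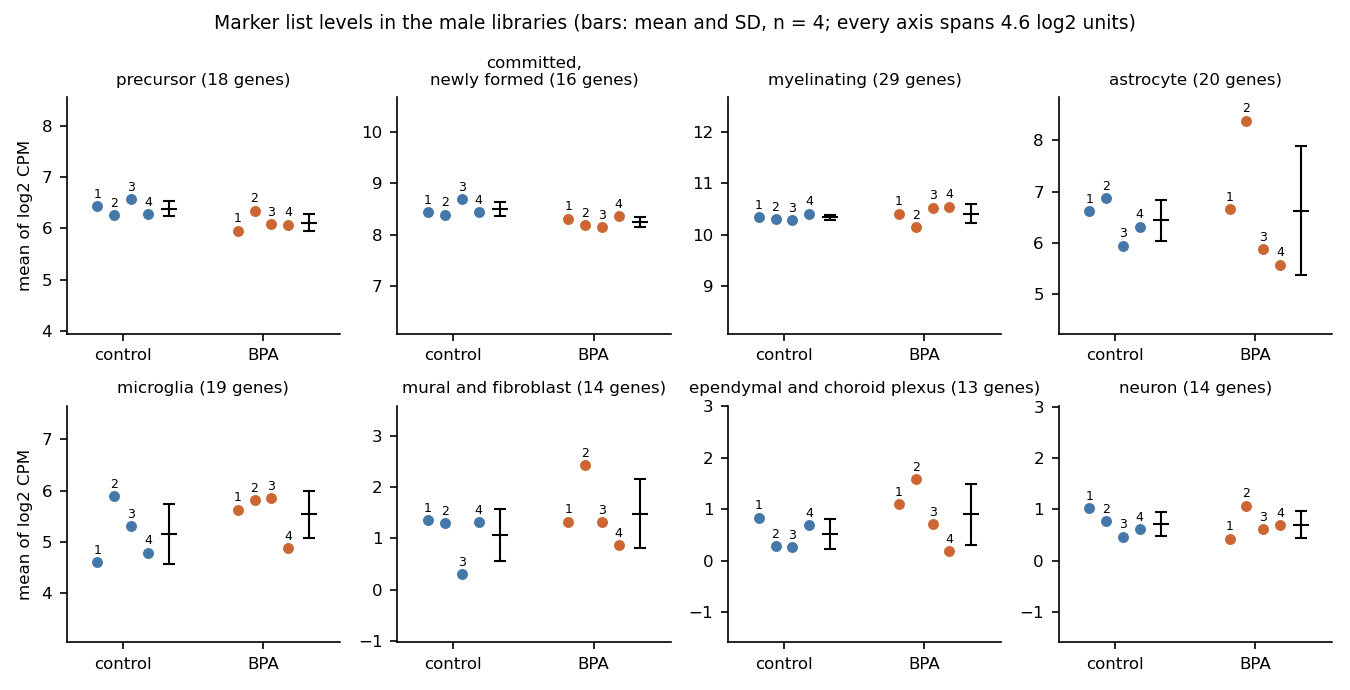
Mean log2 CPM of 8 marker lists (vertical axes, each spanning 4.6 log2 units) in the 4 control and 4 BPA males, each point 1 library with its replicate number and each bar the mean ± SD (n = 4). Male BPA 2 is highest in the astrocyte (8.38), mural and fibroblast (2.43) and ependymal (1.59) lists, while every BPA male lies below every control in the newly formed list.

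Markers of other cell types differed with exposure by amounts that depended on single animals. All 20 astrocyte markers were higher in BPA males, with a median of 0.20, and without male BPA 2 the median was -0.39. The summed astrocyte level of the other 3 BPA males, 1726 to 3578 CPM, overlapped that of controls. Gfap, the astrocyte intermediate filament, was at 45.8, 70.3, 40.5 and 29.8 CPM in controls and at 46.3, 110.3, 52.4 and 33.9 CPM in BPA males. F3, coagulation tissue factor, was at 215 CPM in male BPA 2 and 28.7 to 62.5 CPM in the other 7.

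All 19 microglial markers were higher, with a median of 0.40 (0.22 to 0.64 when single libraries were left out), and 0 had an unadjusted p under 0.05. Cx3cr1, the fractalkine receptor of microglia, was at 50.8, 182, 109.7 and 63.1 CPM in controls and at 126, 174, 139.5 and 70.5 CPM in BPA males. C1qa, a complement subunit made by microglia, was at 65.2, 132, 95.3 and 65.7 CPM against 127, 127, 140.1 and 86.3 CPM. Controls 1 and 4 and BPA 4 were the low libraries in both genes, so the groups overlapped.

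Of 14 mural and fibroblast markers 11 were higher, with a median of 0.47, and 0.19 without male BPA 2. Col1a2, a collagen chain, was at 7.80, 9.15, 4.42 and 8.59 CPM in controls and at 9.97, 25.4, 9.21 and 9.88 CPM in BPA males (0.81 ± 0.37, limma-voom adjusted p 0.619, and 0.44 without male BPA 2). Control 3 was the lowest of the 8 and BPA 2 the highest. Of 13 ependymal and choroid plexus markers 11 were higher, with a median of 0.46, and 0.26 without male BPA 2. Ttr, the transthyretin of choroid plexus, was at 265, 84.5, 142 and 297 CPM in controls and at 348, 492, 304 and 159.8 CPM in BPA males.

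Endothelial markers were split, and neuronal and blood markers were mostly lower. Of 15 endothelial markers 7 were higher and 8 lower (median -0.05, and -0.30 without male BPA 2). Of 14 neuronal markers 3 were higher and 11 lower (median -0.16, from -0.29 to -0.06 when single libraries were left out). Npy, the neuropeptide, chosen after its values were seen, was the 1 neuronal member whose groups did not overlap, at 0.631, 0.394, 0.0664 and 0.502 CPM against 1.02, 1.17, 1.51 and 1.19 CPM. Over all genes tested, 1.63% were higher without overlap. All 6 blood cell markers were lower (median -0.21, from -0.52 to 0.01 when single libraries were left out), with the haemoglobin gene Hbb-bs, which shares 53.2% of its words with other genes, at 899, 980.0, 696 and 1094 CPM in controls and at 1222, 1233, 587 and 557 CPM in BPA males, so that BPA 1 and 2 were the highest and BPA 3 and 4 the lowest of the 8. The part of these cell types in any gene's difference was not tested beyond the covariate fits.

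**Figure D5:**
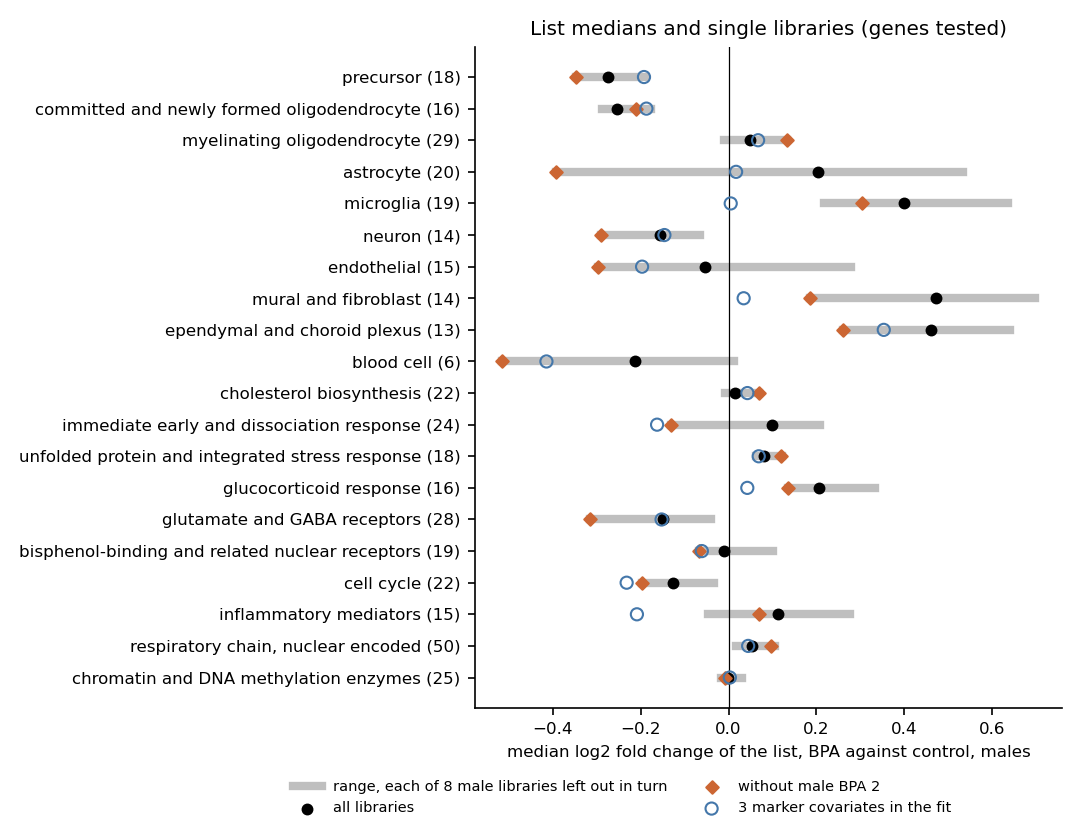
Median log2 fold change, BPA against control males (horizontal axis), of 20 gene lists (number of genes tested in brackets) with all libraries (black), without male BPA 2 (orange diamonds) and with 3 marker covariates in the fit (open circles), and the range when each male library was left out (grey bars). The precursor and newly formed medians stay below 0 in every fit, while the astrocyte median runs from -0.39 to 0.53; the medians of the astrocyte, microglial and mural lists with covariates are near 0 because those lists supply the covariates.

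Among the process lists, glucocorticoid response genes were higher in 13 of 16, with a median of 0.21 (0.14 to 0.33 when single libraries were left out). None was called, and 4 had an unadjusted p under 0.05, all higher, against 3.15% of all genes tested. Per1, a clock gene that glucocorticoids induce, was at 105, 119.7, 112 and 114 CPM in controls and at 159, 138, 134 and 145 CPM in BPA males, without overlap (0.35 ± 0.10, limma-voom adjusted p 0.399). Pdk4, a kinase that restrains glucose oxidation, was at 14.5, 22.8, 14.3 and 11.98 CPM against 29.8, 22.8, 19.0 and 24.6 CPM, with control 2 within the exposed range. Fkbp5, a chaperone that feeds back on the glucocorticoid receptor, was at 22.8, 25.3, 30.4 and 23.6 CPM against 30.0, 27.6, 30.2 and 31.99 CPM (0.24 ± 0.09, limma-voom adjusted p 0.509). Nr3c1, the glucocorticoid receptor itself, was at 102, 115, 102 and 118 CPM against 100.1, 118, 105 and 113 CPM. With the 3 marker covariates the list median was 0.04.

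Glutamate and GABA receptor genes were lower in 19 of 28, with a median of -0.15, and -0.32 without male BPA 2. Grik2, a kainate receptor subunit, was at 93.6, 92.9, 88.8 and 105 CPM in controls and at 73.1, 71.9, 76.6 and 86.5 CPM in BPA males, without overlap. Grm5, a metabotropic glutamate receptor, was at 24.1, 20.3, 29.5 and 20.95 CPM against 12.1, 23.3, 17.5 and 16.8 CPM, with BPA 2 among the controls (-0.46 ± 0.17, limma-voom adjusted p 0.517, and -0.62 without male BPA 2). Astrocytes express several of these receptors as well, and their part in the list was not tested.

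Cell cycle genes were lower in 19 of 22 (median -0.13, from -0.20 to -0.03 when single libraries were left out). Mcm6, a subunit of the replicative helicase, was at 8.92, 8.67, 8.14 and 6.99 CPM in controls and at 4.77, 7.24, 7.204 and 5.48 CPM in BPA males, control 4 overlapping with BPA 2 and 3 (-0.42 ± 0.17, limma-voom adjusted p 0.557). Cenpe, a kinetochore motor, was at 4.03 to 5.49 CPM against 3.25 to 4.19 CPM (-0.43 ± 0.18, limma-voom adjusted p 0.553). Nuclear-encoded respiratory chain genes were higher in 45 of 50, but by little, with a median of 0.05. At an unadjusted p under 0.05, 3 members were higher, against 3.15% of all genes tested. Sdhc, a subunit of complex II, was at 84.9, 76.0, 78.6 and 74.0 CPM against 83.2, 85.7, 89.7 and 84.0 CPM (0.13 ± 0.05, limma-voom adjusted p 0.530).

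Stress and inflammatory lists were higher by smaller margins. Unfolded protein and integrated stress response genes were higher in 14 of 18 (median 0.08). At an unadjusted p under 0.05, 2 were higher and 1 lower, against 3.15% and 4.79% of all genes tested. Ddit3, the stress transcription factor CHOP, was at 10.7, 13.3, 9.83 and 10.2 CPM in controls and at 14.2, 13.6, 13.0 and 13.3 CPM in BPA males, control 2 reaching the exposed range (0.32 ± 0.12, limma-voom adjusted p 0.512). Asns, asparagine synthetase, was at 12.1, 12.5, 13.4 and 9.12 CPM against 9.42, 7.99, 9.75 and 10.1 CPM. Immediate early and dissociation response genes were higher in 19 of 24 (median 0.10, and -0.13 without male BPA 2), inflammatory mediators in 12 of 15 (median 0.11, and -0.21 with the 3 covariates) and cholesterol biosynthesis genes in 14 of 22 (median 0.01). None of these 3 lists had a member at an unadjusted p under 0.05.

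Receptors that BPA or related ligands can bind showed no shared direction. Esr2, Pgr, Pparg and Nr1i3 were not tested, and Nr1i2 was absent from the counts. Of 19 nuclear receptors tested 8 were higher and 11 lower (median -0.01, members from -0.27 to 0.51), and 0 had an unadjusted p under 0.05. Esr1, the estrogen receptor alpha, was near the detection limit at 0.192, 0.276, 0.266 and 0.236 CPM in controls and at 0.145, 0.473, 0.268 and 0.109 CPM in BPA males. Thra, a thyroid hormone receptor, was at 815, 703, 819 and 754 CPM against 719, 599.8, 755 and 751 CPM. Both pairs of groups overlapped. Of 25 chromatin and DNA methylation enzymes 12 were higher and 13 lower (median 0.00), and Chd7, a chromatin remodeller of oligodendrocyte differentiation, was at 102, 111, 110.5 and 122 CPM against 96.4, 93.7, 102 and 103 CPM (-0.17 ± 0.05, limma-voom adjusted p 0.444).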

How the data were processed

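The members and gene lists were chosen with earlier results of these data known. The labels' protocols describe stranded libraries of polyadenylated RNA from O4-sorted cells. The authors ran bcl2fastq (2.20.0.422), STAR (2.5.3a) and HTSeq (0.6.1p1) on build mm39, per the submitters' processing notes. Whole-number counts were deposited for each gene in each library; the layout of the table could not be read by an automated check of units, so they are described from their values. The 16 columns of normalized values were not used. GENCODE M21 (GRCm38) gave symbols for 31717 of 32207 genes.

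Genes needed a count of about 10 in 4 libraries and 15 in total, and those kept held 99.93% to 99.95% of counts. TMM scaling and this filter were re-implemented in R 4.3.3. Limma 3.58.1 (voom, robust empirical Bayes, two-sided, Benjamini-Hochberg over 16339 genes) fitted all 16 libraries with 1 coefficient per group, in place of the planned count test. In counts simulated for BPA against control males over 16339 genes, it found 44.8% (n = 67) of 1.5-fold, 59.7% (n = 67) of 2-fold and 80.3% (n = 66) of 4-fold differences, and called 8 genes simulated without one. Simulated counts were drawn independently, with a spread per gene averaged over the groups. They held no library apart like male BPA 2 and no shared shift of cell types. These shares may therefore not hold for the real libraries. Words of 50 bases were compared among GENCODE M21 transcripts, and 1 pair was aligned with Biopython 1.88.

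Named genes had full symbols and at least 1 CPM: called genes, the 8 of smallest p in each direction, up to 3 members of each of the 20 lists, the 6 of largest change, 10 fixed genes at any level, and those said to be chosen after their values were seen. The result of 1 gene that the rule selects is not reported here. Alternatives were other scalings and filters, the males alone, library quality weights, marker covariates, a replicate block and leaving out each library.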

Additional observations from a re-analysis of the deposited data

Results flagged for a closer look

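In 20 of 242 groups of 4 male libraries, 1 library lay far from the other 3 by Dixon's test at 95%, which chance does in about 1 of 20 groups; some of these genes were chosen because single animals differed. Male BPA 2 was the distant library in 8 of them: Aqp4 at 398 CPM, Col1a1 at 26.2, Col1a2 at 25.4, Vtn at 17.9, Nr3c2 at 14.96, Ptprb at 72.4, Egflam at 2.17 and Glns-ps1 at 13.1 CPM, each the highest of its group. Aqp4, collagen and vitronectin genes are markers of astrocytes, fibroblasts and mural cells, whose lists were all highest in this library. Male BPA 1 was distant for Tuba1c, an alpha-tubulin with 52.7% of its words in other genes, at 6.13 CPM, and for Spock1 at 10.96 CPM. Male BPA 4 was distant for Rps3a1 at 0.380 CPM and for Pcdh15 at 31.2 CPM.

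Among controls, male control 2 was distant for Rps3a3 at 13.6 CPM and Egflam at 1.18 CPM, in both near the BPA males. Male control 1 was distant for Efna3 at 118 CPM, Nfasc at 7734 CPM, its lowest, and Klf6, an immediate early transcription factor, at 65.8 CPM. Male control 3 was distant for Grik4, a kainate receptor subunit, at 18.6 CPM, for the newly formed oligodendrocyte list at 8.69 log2 CPM against 8.39 to 8.44 in the other controls, and for the mural and fibroblast list at 0.31 against 1.29 to 1.36. Without male control 3 the median log2 fold change of the newly formed list was -0.18 and that of the mural and fibroblast list 0.24.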

How the results depend on the processing

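The 1 called gene was lost (0 called by limma-voom) with library quality weights, each of the 4 covariate fits and in all 8 fits without 1 library (0 to 0). It was also lost with a replicate block, which called another gene. The call was kept with median-of-ratios scaling, with no filter on low counts, with the stricter filter and in the males alone. With no filter on low counts and in the males alone, 2 genes were called. Genes at an unadjusted p under 0.05 numbered 1250, 1940 with no filter (of 30484 genes) and 948 (without male control 3) to 1810 (without male BPA 2, 890 higher and 920 lower). Genes of 2-fold or more numbered 267, 1921 with no filter and 104 with the stricter filter. The median absolute log2 fold change was 0.11, and 0.19 with no filter. Genes without overlap numbered 256 higher and 442 lower with 4 against 4, and 999 to 1807 in both directions together with 1 library left out, the most without male BPA 2; smaller groups overlap less.

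Replicate numbers correlated at -0.18, 0.42, 0.20 and 0.29 between same-numbered males. As 1 of the 4 is not over 0.1 and the labels give no shared litter or day, they were not treated as pairs, though 3 of the 4 are positive. With a replicate block limma-voom called 1 gene, Pcdhga5, and 1237 had an unadjusted p under 0.05. The interaction called 0 genes.

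Of values of named genes, 1765 kept their direction and side of the threshold, 1 newly passed (Pcdhga5 with the block) and 32 changed sign, none of them called. With 1 library left out, the log2 fold changes that changed sign ran from -2.37 to 0.087 for Cntn3, -0.024 to 0.272 for Syn2, -0.19 to 0.011 for Mbp, -0.010 to 0.567 for Gfap, -0.23 to 0.848 for Bmpr1b, -0.022 to 0.451 for Pecam1, -0.22 to 0.751 for F3 and -0.42 to 0.534 for Aqp4, in Cntn3 and Mbp the highest and in the others the lowest without male BPA 2. They ran from -3.39 to 0.14 for Efna3, -0.37 to 0.049 for Hba-a1, -0.29 to 0.089 for Hbb-bs, -0.54 to 0.18 for Esr1 and -0.034 to 0.040 for Nr3c1. With quality weights Bmpr1b was -0.092, F3 -0.093 and Aqp4 -0.29. With all 3 covariates and with the microglial one Cx3cr1 was -0.026 and -0.049, Egr2 -0.051 and -0.097, and Icam1 -0.19 and -0.14. With the mural covariate Pecam1 was -0.037 and Aqp4 -0.18. Nr3c1 was 0.012 with no filter and 0.0050 with the stricter one. The cause was not tested. The planned fits with edgeR and DESeq2 were not run: the counts were not independently checked as such, and count models were kept to checked columns, which is a choice and no limit of the tools. Under 1 CPM, 35.2% of intervals lay within 2-fold.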
